A study of Schizosaccharomyces pombe with 2 samples.

Results

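Transcript levels of 9 histone chaperone genes were examined in fission yeast, Schizosaccharomyces pombe, on arrays that set a strain labelled pob3 against wild type. The genes were chosen by name, with a rule that uses no measured value, though earlier results of these data were known. They are hip1 (SPBC31F10.13c), hip3 (SPBC31F10.14c) and slm9 of the HIRA complex, pcf1 (SPBC365.19c), pcf2 (SPAC26H5.03) and pcf3 (SPAC25H1.06) of the CAF-1 complex, and nap2 (SPBC2D10.11c), chz1 (SPAC4G9.06c) and scm3 (SPAPB1A10.02). They make up 9 of 4870 genes on the spotted open reading frame arrays, and all 9 were among the 4768 genes measured on both of 2 arrays. Each array carried total RNA of both strains, with the dyes swapped (pob3 RNA carried Cy5 on replicate 1 but Cy3 on replicate 2), and each gene was spotted in duplicate. The labels give neither the pob3 allele, nor the rest of either genotype, nor the growth conditions, and whether separate cultures were grown for each array is not stated. The spread behind the p-values is therefore that of these arrays and may be technical.

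Histone chaperones are proteins that bind histones and hand them to DNA or take them from it. HIRA deposits H3 and H4 outside of DNA replication, and in fission yeast it is needed for heterochromatic silencing and for holding down Tf2 retrotransposons. CAF-1 deposits H3 and H4 behind the replication fork, to which it is tethered by the sliding clamp PCNA. Pob3, with Spt16, forms FACT, a chaperone that opens and rebuilds nucleosomes during transcription and replication. The series concerns FACT and silent chromatin at centromeres, and the comparison addresses whether transcripts of the other assembly pathways differ in the pob3 strain.

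No difference between the strains was detected in any of the 9 genes beyond the error of 2 arrays, which does not show that their levels were equal. Their mean log2 ratios of pob3 over wild type lay between -0.52 for hip1 and 0.46 for pcf2, so that 0 of 9 reached 1.5-fold, against 7.19% of all genes. In limma, with Benjamini-Hochberg adjustment over all 4768 genes, 0 of the 9 passed an adjusted p of 0.05, and 0 of the 9 had an unadjusted p under 0.05. The background was 0.713% of all genes past the adjusted threshold, 34 genes, of which 29 (0.608%) were higher and 5 (0.105%) lower in pob3. At the unadjusted level it was 7.47%. The smallest mean difference among the 34 called genes was 1.28 on the log2 scale, larger than that of any of the 9. With only 2 arrays the 95% interval of a gene reached a median of 0.56 to either side of its mean, and for 7 of the 9 genes it lay within 2-fold in both directions, as it did for 81.2% of all genes. The interval of hip1 reached past 2-fold lower, and that of pcf2 just past 2-fold higher.

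**Figure D1:**
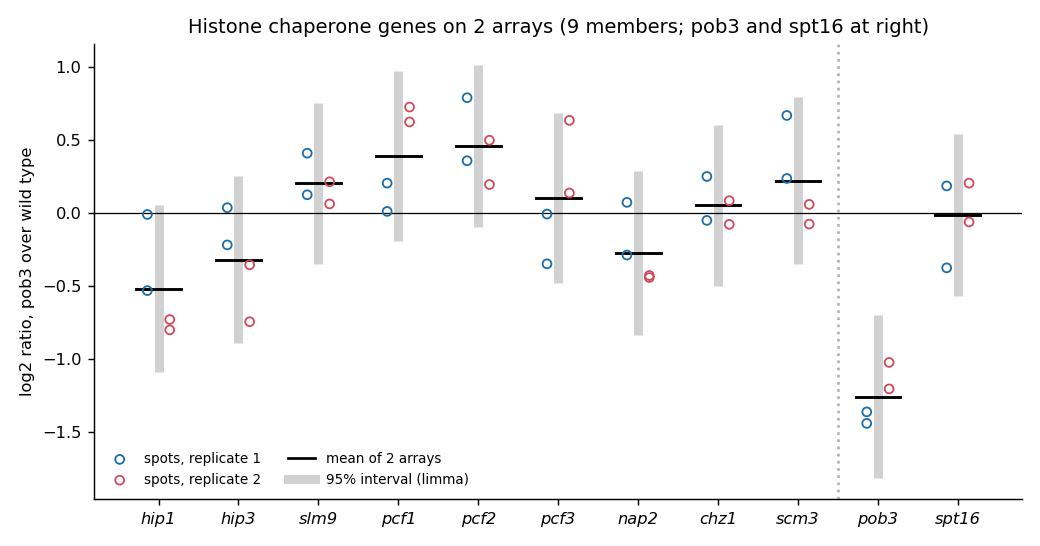
Log2 ratio of pob3 over wild type (vertical axis) for the 9 chaperone genes and, right of the dotted line, the FACT genes pob3 and spt16. Open circles are the duplicate spots of replicate 1 (blue) and replicate 2 (red), black lines the means of the 2 arrays and grey bars their 95% intervals from limma: the interval of each of the 9 genes spans 0, while that of pob3 ends at -0.70.

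The targeted gene checks the label of the strain. The log2 ratio of pob3 was -1.40 on replicate 1 and -1.12 on replicate 2 (-1.26 ± 0.20, SD, n = 2), with an adjusted p of 0.0524 in limma that just missed the threshold. Signal of the pob3 probe remained in the strain labelled pob3, and where that probe lies relative to the allele is unknown. The transcript of spt16, the partner of Pob3, had -0.09 and 0.07 (adjusted p = 0.993 in limma). Above background were 96.6% to 98.8% of the gene spots, against 1.33% to 7.02% of empty and buffer spots. Every spot of the 9 genes was above background in both dyes and below saturation, so their ratios are measured values and not bounds. Duplicate spots correlated across genes at 0.754 on replicate 1 and 0.843 on replicate 2, whereas the ratios of the arrays correlated at only 0.155. Genes are not independent replicates, and the arrays differ in dye orientation, so an array effect and a dye effect cannot be told apart.

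Of the HIRA genes, hip1 and hip3 lay below 0 on both arrays and slm9 above 0 on both, although the mean of slm9 turned with print-tip loess. Hip1 and Slm9 are the HIRA-like WD-repeat subunits, and Hip3 is another large subunit. On replicate 1 the normalised log2 signal of hip1 was 10.80 in pob3 and 11.07 in wild type, and on replicate 2 it was 10.84 and 11.61. The wild-type signal was the higher one in each pair. The log2 ratios were thus -0.27 and -0.77 (-0.52 ± 0.35, SD, n = 2, a ratio of 0.698), with an interval from -1.09 to 0.06 and an adjusted p of 0.716 in limma. This was the largest absolute change among the 9 genes, and 89.5% of all genes had a smaller one. The duplicate spots of hip1 ranged from -0.80 to -0.01, and 0 of 4 lay above 0.

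The hip3 transcript had normalised log2 signals of 11.63 in pob3 and 11.72 in wild type on replicate 1, and 11.91 and 12.46 on replicate 2. Its log2 ratios were -0.09 and -0.55 (-0.32 ± 0.32, SD, n = 2, adjusted p = 0.834 in limma), and 1 of its 4 spots was above 0. Replicate 2 again carried most of the difference. Next to each other on the chromosome, hip1 and hip3 were also printed at the same row and column of different blocks of the array. The median ratio of the 32 gene spots at that position was 0.04 to 0.09 in the files of replicate 1 and -0.28 to -0.19 in those of replicate 2. With such position medians subtracted (chosen once the data had been seen), hip1 had -0.43 and hip3 -0.24, so both kept their sign. With a loess curve for each print block, hip1 had -0.33 and hip3 -0.06.

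The slm9 transcript, in contrast, had normalised log2 signals of 11.65 in pob3 and 11.38 in wild type on replicate 1, and 11.84 and 11.70 on replicate 2. Its log2 ratios were 0.27 and 0.14 (0.20 ± 0.09, SD, n = 2, adjusted p = 0.917 in limma), and all 4 spots were above 0, but with a loess curve for each print block the mean was -0.07. At the print position of slm9, the median ratio of 25 gene spots was -0.03 to 0.04 in the files of replicate 1. It was 0.23 and 0.26 in those of replicate 2, where the spots of slm9 had 0.21 and 0.06. With position medians subtracted, the mean of slm9 was 0.08. The hip1 ratio was lower than that of slm9 on both arrays, and hip1 minus slm9 was -0.54 on replicate 1 and -0.90 on replicate 2. Both values still contain the position medians, which on replicate 2 lay on opposite sides of 0 for these genes. The difference between these subunits of one complex was not tested. The remaining HIRA subunit gene, hip4, which was not among the 9, had -0.02 and 0.14 (0.06 ± 0.11, SD, n = 2, adjusted p = 0.970 in limma). The HIRA genes therefore did not share a direction, except with print-tip loess, where all 3 means were below 0.

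**Figure D2:**
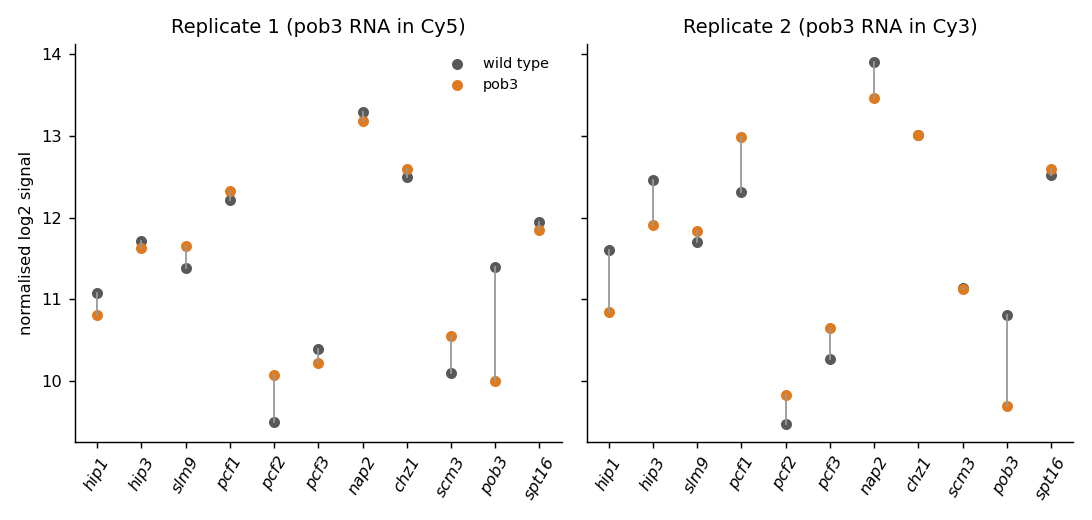
Normalised log2 signal (vertical axis) of each gene in wild type (grey) and pob3 (orange), on replicate 1 at left and replicate 2 at right, each point the mean of the duplicate spots. The line of pob3 is the longest on each array, and on replicate 2 hip1, with a difference of -0.77, and pcf1, with 0.68, come nearest to it; levels of different genes come from different probes and cannot be compared.

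The CAF-1 genes had means above 0, except that pcf3 turned with print-tip loess, a separate loess curve for each print block. Pcf1 is the large subunit that binds PCNA, Pcf2 the middle WD-repeat subunit, and Pcf3 a small WD-repeat subunit of a family of histone-binding proteins. For pcf2 the normalised log2 signals were 10.08 in pob3 and 9.50 in wild type on replicate 1, and 9.83 and 9.48 on replicate 2. The pob3 signal was higher in each pair, and all 4 spots had ratios above 0, from 0.20 to 0.79. The log2 ratios of 0.57 and 0.35 gave a mean of 0.46 ± 0.16 (SD, n = 2, a ratio of 1.38), with an interval from -0.10 to 1.02 and an adjusted p of 0.752 in limma. A smaller absolute change was found in 85.7% of all genes.

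For pcf1 the normalised log2 signals were 12.32 in pob3 and 12.21 in wild type on replicate 1, and 12.99 and 12.32 on replicate 2. Its log2 ratios of 0.11 and 0.68 (0.39 ± 0.40, SD, n = 2, adjusted p = 0.795 in limma) shared a sign, as did its 4 spots, but the arrays stood far apart. The pcf3 transcript had opposite signs on the arrays, -0.18 and 0.39 (0.10 ± 0.40, SD, n = 2, adjusted p = 0.943 in limma). Its normalised log2 signals were 10.22 in pob3 and 10.39 in wild type on replicate 1, and 10.65 and 10.27 on replicate 2. With a loess curve for each print block the mean of pcf3 was -0.05, while pcf1 had 0.27 and pcf2 0.37. With position medians subtracted, pcf1 had 0.26, pcf2 0.39 and pcf3 0.07. Only pcf1 and pcf2 thus kept a positive value on both arrays and under every processing setting that measured them, and neither passed the test in any of them.

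The genes nap2, chz1 and scm3 encode chaperones for other histones. Nap2 belongs to the NAP family, whose members carry H2A and H2B. Its normalised log2 signals were 13.19 in pob3 and 13.29 in wild type on replicate 1, and 13.47 and 13.90 on replicate 2, so that wild type was higher on both. The log2 ratios were -0.11 and -0.44 (-0.27 ± 0.23, SD, n = 2, adjusted p = 0.875 in limma), with 1 of 4 spots above 0. The print position of nap2 had median ratios of -0.25 and -0.14 on replicate 1 and 0.12 and 0.06 on replicate 2. With position medians subtracted, the mean of nap2 was -0.22. The related gene nap1, outside the 9, had 0.08 and 0.42 (adjusted p = 0.889 in limma), on the other side of 0 on both arrays, and the difference between these genes was not tested.

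Chz1 is named after the budding yeast chaperone of the histone variant H2A.Z. It had the smallest difference of the 9 genes, with log2 ratios of 0.10 and 0.004 (0.05 ± 0.07, SD, n = 2, adjusted p = 0.978 in limma). Its normalised log2 signals were 12.60 in pob3 and 12.50 in wild type on replicate 1, and 13.01 in both strains on replicate 2. Its sign was not stable, with 2 of 4 spots above 0 and a mean of -0.13 with a loess curve for each print block. Its interval, from -0.50 to 0.60, left room for a change of up to 1.52-fold higher, so equal levels are not shown.

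Scm3 is the chaperone that brings Cnp1, the centromeric variant of H3, to centromeres. The scm3 transcript had a log2 ratio of 0.45 on replicate 1 and -0.01 on replicate 2 (0.22 ± 0.33, SD, n = 2, adjusted p = 0.911 in limma). Its normalised log2 signals were 10.55 in pob3 and 10.10 in wild type on replicate 1, and 11.13 in both strains on replicate 2. In the ratios as reported, the positive mean therefore came from replicate 1 alone. At its print position the median ratio of 28 gene spots was 0.21 to 0.36 on replicate 1 and -0.15 to -0.12 on replicate 2. With position medians subtracted, the mean of scm3 was 0.15, so the split between the arrays may contain an offset of print position, which was not tested.

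Agreement between the arrays was limited across all genes, and for the 9 genes its measures were mixed. The ratios had the same sign on both arrays for 7 of the 9 genes, against 52.5% of all genes. Above 0 on both were 4 genes, slm9, pcf1, pcf2 and chz1 (26.8% of all genes). Below 0 on both were 3 genes, hip1, hip3 and nap2 (25.7% of all genes). Of the rest, pcf3 was below 0 on replicate 1 alone (24.4% of all genes) and scm3 below 0 on replicate 2 alone (23.1%). Differences of more than 1 between the arrays, seen in 8.66% of all genes, occurred in 0 of the 9. The median SD between arrays was 0.32 for the 9 genes and 0.26 for all genes, and the median absolute mean was 0.27 and 0.20.

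**Figure D3:**
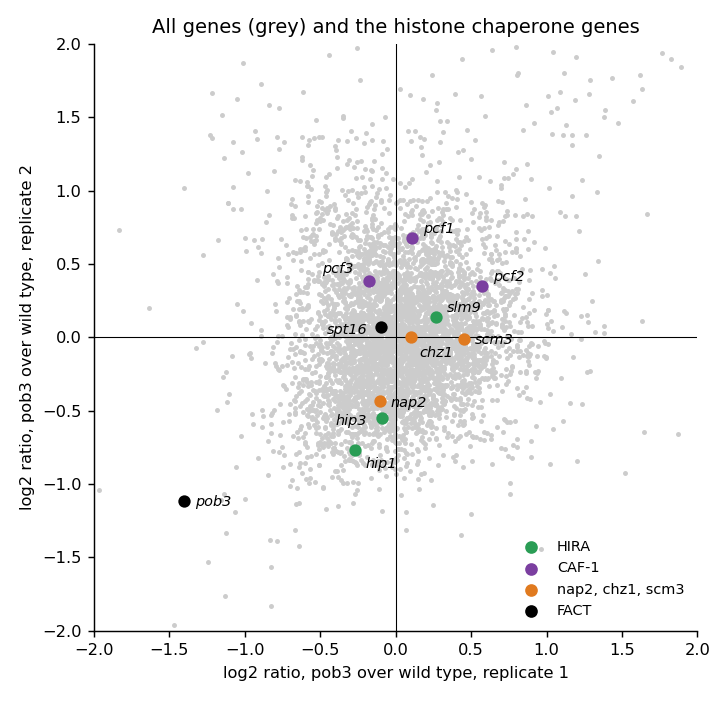
Log2 ratio of pob3 over wild type on replicate 1 (horizontal) and replicate 2 (vertical) for all genes (grey) and for the HIRA (green), CAF-1 (purple), other chaperone (orange) and FACT genes (black); 17 genes lie outside the axes, which end at 2. The 9 chaperone genes sit within the cloud of all genes, and pob3 lies at lower left.

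Genes beside the 9 on the chromosome were also described. Of the 16 nearest measured neighbours, 9 had means above 0 and 7 below 0, between -0.56 and 1.30, with a median of 0.11. Of the 16, 0 exceeded 2-fold on replicate 1 and again on replicate 2, and 0 passed an adjusted p of 0.05 in limma. The pair hip1 and hip3 was flanked by tma20, with -0.03 ± 0.52, and atp15, with 0.41 ± 0.28 (SD, n = 2, adjusted p of 0.992 and 0.775 in limma). These flanking genes did not lie below 0 on both arrays as hip1 and hip3 did. The highest mean among the neighbours was that of spo5, beside pcf1, with 0.64 on replicate 1 and 1.96 on replicate 2 (1.30 ± 0.93, SD, n = 2, adjusted p = 0.132 in limma). The spo5 ratios lay above 0 on both arrays, as did those of 26.8% of all genes. On the other side of pcf1, psm1 had 0.39 on replicate 1 and 0.15 on replicate 2. These neighbours were named after their values were seen.

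Partner genes of the same pathways were described as lists, each beside a median of 0.02 over all genes. Of 14 measured genes for other histone chaperones, 0 of 14 passed the adjusted threshold in limma and 1, pob3, had an unadjusted p under 0.05. Their median was 0.02, and on both arrays 2 lay above 0 (26.8% of all genes) and 5 below 0 (25.7% of all genes). After pob3, the smallest p-values belonged to rtt106 (-0.49 ± 0.22, adjusted p = 0.721), whose budding yeast counterpart is a chaperone of H3 and H4, and ani1 (-0.48 ± 0.58, adjusted p = 0.754), a prolyl isomerase also known as fkbp39. The gene asf1, whose product hands H3 and H4 to HIRA and CAF-1, had -0.53 and -0.24 on the arrays (adjusted p = 0.788). It was 1 of the 5 below 0 on both and was named after its value was seen.

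The histones carried by these chaperones were mostly too bright to measure. Of 10 measured histone and variant genes, 8 were saturated in at least 1 channel, and 6 in both channels of an array, where no ratio can be read. None passed the adjusted threshold in limma, and 0 had an unadjusted p under 0.05. Their median was 0.04, but it was -0.29 when each file was centred on its median in place of loess. The smallest p-values among histones were those of hhf3, of H4, at 0.55 ± 0.52, hta2, of H2A, at 0.32 ± 0.12, and htb1, of H2B, at 0.27 ± 0.30 (SD, n = 2, adjusted p between 0.711 and 0.877 in limma). Each of these was saturated in at least 1 channel, and htb1 in both channels of an array, so their measured ratios are not changes in level. The variants pht1, of H2A.Z, and cnp1 were not saturated, and pht1 had 0.06 and -0.45 (adjusted p = 0.927 in limma).

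The list of the replication clamp, which tethers CAF-1, and of the clamp loaders held 8 genes, with a median of -0.21. On both arrays 4 lay below 0, against 25.7% of all genes, and 0 above 0, against 26.8%. The median was between -0.22 and -0.16 under every processing setting tried, all applied to the same 2 arrays. None of the 8 passed the adjusted threshold in limma, and 0 had an unadjusted p under 0.05. The PCNA gene pcn1 had -0.23 and -0.84 on the arrays (-0.53 ± 0.43, adjusted p = 0.712). The clamp loader genes rfc3 and rfc4 had -0.50 ± 0.14 (adjusted p = 0.713) and -0.34 ± 0.14 (adjusted p = 0.819). The means of rfc2, rfc5 and elg1 were above 0, at 0.10, 0.09 and 0.004.

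In the list for Cnp1 deposition, which surrounds scm3, 0 of 11 measured genes passed in limma and 0 had an unadjusted p under 0.05. Its median was -0.10 on replicate 1 and 0.22 on replicate 2, 0.14 in the mean of both arrays, and -0.03 with the submitters' values for replicate 2. It included the kinetochore genes sim4 at 0.45 ± 0.23 and mis14 at -0.39 ± 0.04, and ams2, a transcription factor of histone genes, at 0.21 ± 0.01 (SD, n = 2, adjusted p between 0.752 and 0.911 in limma). The gene of the cargo, cnp1, had 0.09 and 0.22 on the arrays. Of 12 measured genes for H2A.Z exchange, to which chz1 relates, 0 of 12 passed, 0 had an unadjusted p under 0.05 and the median was 0.03. The smallest p-values were those of swc3 (0.43 ± 0.11), rvb1 (-0.38 ± 0.06) and bdf1 (0.45 ± 1.21), with adjusted p between 0.754 and 0.833 in limma.

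Tf2 retrotransposons, which HIRA is known to repress, were represented by 12 probes for 11 elements that share near-identical sequence, so that a probe can report several copies. Their median was 0.36 on replicate 1 and -0.27 on replicate 2, and 0.06 in the mean of both arrays. None passed in limma, and 0 had an unadjusted p under 0.05. The elements Tf2-2 and Tf2-3 had 0.43 ± 0.03 and 0.40 ± 0.08, and Tf2-11 had -0.42 ± 0.51 (SD, n = 2, adjusted p between 0.754 and 0.782 in limma).

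**Figure D4:**
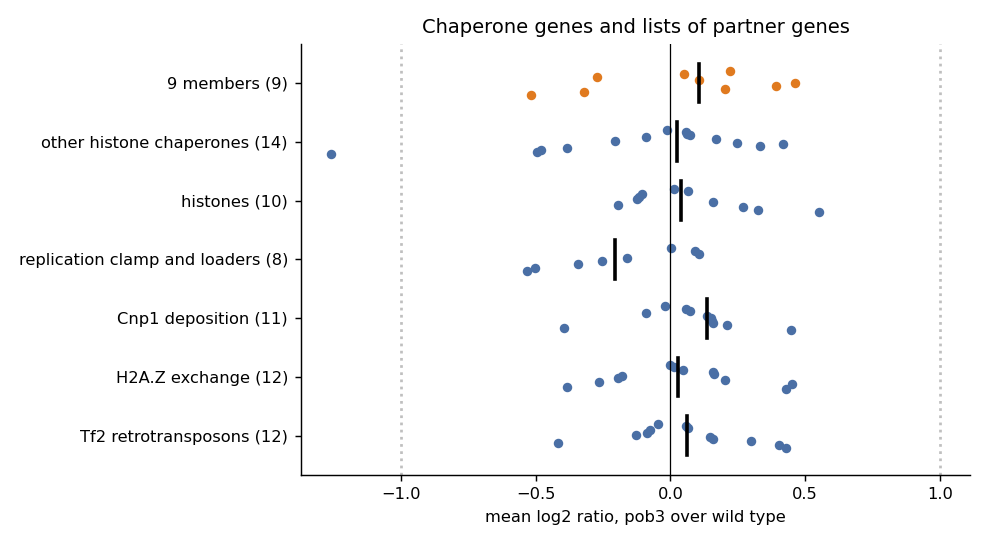
Mean log2 ratio of pob3 over wild type (horizontal) of single genes in the set of 9 (orange) and in 6 partner lists (blue), with the number measured in brackets, black bars at the medians and dotted lines at 2-fold. Only pob3, in the list of other histone chaperones, lies beyond 2-fold.

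The choice of normalisation moved the ratios of the 9 genes, but 0 of 9 passed in any setting. Under the 13 alternative settings, hip1, hip3 and nap2 stayed below 0 and pcf2 and scm3 above 0, and pcf1 stayed above 0 in the 12 that measured it. The hip1 mean ranged from -0.63 to -0.33 and that of pcf2 from 0.37 to 0.49. A loess curve for each print block pulled all 9 values toward 0 or past it.

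**Figure D5:**
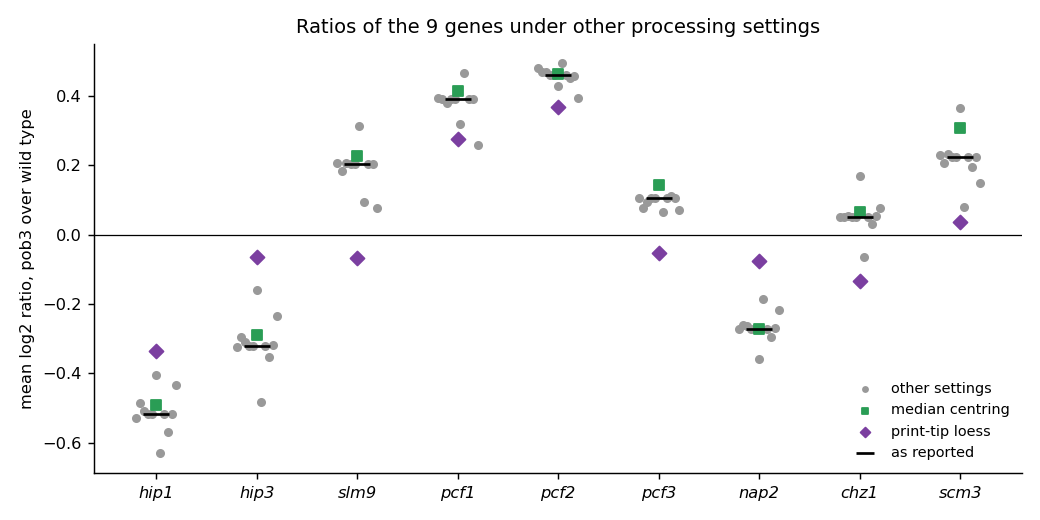
Mean log2 ratio of pob3 over wild type (vertical) of the 9 genes as reported (black bars), with median centring (green), with print-tip loess (purple) and under other settings (grey). Values of slm9, pcf3 and chz1 cross 0 with print-tip loess, and hip1, pcf1 and pcf2 do not cross 0 in any setting shown.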

How the data were processed

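The authors deposited intensities: per the file headers, the median brightness of each spot and its local background in each channel, in 1 file per duplicate spot (4 files). Their table of processed log2 ratios was made with Lowess in GeneSpring, per the design text deposited with the series. For replicate 2 these values had an r of 0.977 with the ratios computed here, as pob3 over wild type. For replicate 1 they cover 0 gene spots, so their scale, centring and direction could not be compared with the gene ratios computed here. The column medians were -0.12 and -0.04. The program that quantified the spots is not given in the sources.

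Ratios were computed in R 4.3.3 with limma 3.58.1. Normexp with an offset of 50 corrected the background, and a loess curve, to which control spots added no weight, normalised each file. A spot was kept if its flag was 0 and either dye exceeded its limit, which was 2 SDs over background for Cy3 and 1.5 times background for Cy5. The header names no channel for the background SD, whose size matched Cy3. Spots were averaged to 1 value per array. Limma's lmFit and eBayes tested the mean against 0 (1 residual and 10.5 prior degrees of freedom, prior SD 0.373). Normalised signals per channel came from loess followed by Aquantile scaling. The test was checked on simulated data, with independent noise drawn from the fitted prior. The simulation held no dye, array or print position effect, so it cannot show how the test behaves with these.

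Of 4870 gene names 4660 matched 1 locus of RefSeq's table (assembly ASM294v3), used only for names and gene order. Left out were controls, 154 names marked missing, 25 reporter or noncoding probes and 1 date. The 9 genes, the lists and the spot limits were chosen with earlier results of these data known. A neighbour was to be named if over 2-fold on both arrays, which 0 of 16 were. Named besides were pob3, spt16, hip4, nap1 and up to 3 genes of smallest p per list. Of these, hip4 and nap1 were added after their values were seen, as were cnp1, pht1 and the genes so marked in the results. The genes rfc2, rfc5 and elg1 were named for their means above 0.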

Additional observations from a re-analysis of the deposited data

How the results depend on the processing

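The count of 0 of the 9 genes past the threshold was the same in every alternative, and their smallest adjusted p lay between 0.572 and 0.988 (limma). With the second spots alone, 1 of the 9 had an unadjusted p under 0.05 in limma. The count of 34 genes among all was 0 with median centring (174 with an unadjusted p under 0.05 in limma), 13 when the normexp offset was 10, 55 with print-tip loess, 53 with the second spots alone, 66 with the submitters' values for replicate 2 and 54 when adjusted p up to 0.10 passed. Loess on kept spots alone, a setting added, like the print position medians, after the data were seen, gave 21. Signs turned for chz1 to -0.13 with print-tip loess and -0.064 with the second spots, for pcf3 to -0.0528 and slm9 to -0.0666 with print-tip loess, and for spt16 to 0.0216 with median centring and 0.20 with the second spots; the cause was not tested. With either array left out, scm3 ran from -0.0082 to 0.453, pcf3 from -0.178 to 0.386 and spt16 from -0.0949 to 0.0719. Single arrays gave hip1 -0.77 to -0.27 and pcf1 0.11 to 0.68, with no test. The pob3 gene, not called as reported, passed an adjusted p of 0.05 in 9 alternatives, with values from 0.00156 to 0.474 over all (limma). Its reported adjusted p of 0.0524 in limma also passed the threshold of 0.10. The submitters' values measured 7 of the 9 genes, without slm9 and pcf1. The pairing of the strains was already part of the fit, since each array gave ratios of pob3 over wild type. No further pairing was possible, as the study has a single group of arrays. List medians also changed sign, ranging from -0.09 to 0.03 for other histone chaperones, -0.03 to 0.05 for H2A.Z exchange and -0.11 to 0.12 for Tf2. The number of arrays limits the precision.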
